A study of Mus musculus with 1 sample.

Results

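Oxidative phosphorylation was described here through 112 of the 22631 genes of 1 single-cell library of fetal mouse testis. The genes were taken by the start of their symbols (Ndufa, Ndufb, Ndufc, Ndufs, Ndufv, Sdha to Sdhd, Uqcr, Cox4i, Cox5 to Cox8, Atp5 and mt-), which gave 99 genes of the nuclear genome and the 13 protein-coding genes of the mitochondrial genome. The study asked what Sertoli cells, the supporting cells of the testis cords, need the nuclear receptor NR5A1 for. The library analysed here held control cells, labelled WT for their genotype and embryonic day 14.5 for their stage, whereas the methods give loxP-flanked Nr5a1 (Nr5a1 L2/L2) without the Cre transgene for the controls and collection at E13.5 and E14.5. The study names 12 control testes, on a mixed C57BL/6 and 129/SvPass background and dissociated with trypsin, as the source of its control cells, which here were 1 sample with no replicate. The cells of the mutants were not analysed here.

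The respiratory chain passes electrons from NADH (complex I) and succinate (complex II) through ubiquinol and cytochrome c (complex III) to oxygen (complex IV), and ATP synthase (complex V) uses the proton gradient that results. Complexes I, III, IV and V are built from subunits made in the cytosol and subunits made inside the mitochondrion, whose mRNAs are cut from long transcripts of the mitochondrial DNA; complex II is wholly nuclear. Several complex IV subunits have a common gene and a second gene used in few tissues, such as muscle, lung or testis. In the testis, Leydig cells begin steroid synthesis on the inner mitochondrial membrane.

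By complex, the nuclear genes held 37 for complex I, 4 for complex II, 8 for complex III, 19 for complex IV (Ndufa4 and Ndufa4l2 among them) and 18 for complex V. The prefixes also took 12 assembly factors (Ndufaf and Sdhaf genes), which build complexes without staying in them, and Cox7a2l, which ties complex III to complex IV in supercomplexes. The mitochondrial genes held 7 for complex I, 1 for complex III, 3 for complex IV and 2 for complex V. All 112 had at least 1 UMI (a unique molecular identifier, which counts 1 captured mRNA molecule) in the kept cells.

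The promoters of 4 genes are shown because these genes carry results below: those of Cox6b1 and Cox6b2, the common and the testis form of 1 complex IV subunit, and those of Cox6a1 and Sdha, which stood high in Leydig-like cells. Each line gives the 250 bases before the start site, 5′ to 3′ on the gene's strand, from RefSeq on GRCm38.p6, with matches to the searched motifs in capitals. All 4 genes lie on the minus strand, and the printed stretches are chr7:30626115-30626364, chr7:4753095-4753344, chr5:115348959-115349208 and chr13:74350241-74350490 in this order.
Cox6b1: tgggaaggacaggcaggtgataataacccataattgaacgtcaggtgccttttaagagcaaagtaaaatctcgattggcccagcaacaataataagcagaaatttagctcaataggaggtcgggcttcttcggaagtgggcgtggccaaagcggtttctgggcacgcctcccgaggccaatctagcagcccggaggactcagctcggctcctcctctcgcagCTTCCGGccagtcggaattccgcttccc
Cox6b2: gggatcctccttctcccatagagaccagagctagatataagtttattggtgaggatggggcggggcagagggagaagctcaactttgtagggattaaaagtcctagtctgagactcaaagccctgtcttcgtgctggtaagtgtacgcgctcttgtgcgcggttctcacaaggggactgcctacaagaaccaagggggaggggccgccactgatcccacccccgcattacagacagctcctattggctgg
Cox6a1: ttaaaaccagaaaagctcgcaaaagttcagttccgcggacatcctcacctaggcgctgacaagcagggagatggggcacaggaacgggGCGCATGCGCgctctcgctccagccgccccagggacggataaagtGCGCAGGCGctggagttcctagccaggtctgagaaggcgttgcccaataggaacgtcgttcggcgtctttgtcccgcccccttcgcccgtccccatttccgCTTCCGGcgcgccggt
Sdha: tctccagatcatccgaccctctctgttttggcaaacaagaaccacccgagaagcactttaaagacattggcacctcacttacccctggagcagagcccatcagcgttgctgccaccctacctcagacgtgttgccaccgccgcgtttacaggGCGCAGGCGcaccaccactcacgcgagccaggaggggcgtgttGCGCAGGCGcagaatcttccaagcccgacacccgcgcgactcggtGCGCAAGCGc
The capitals mark GCGCANGCG, a motif of NRF1, and CCGGAAG, a motif of the ETS family to which GABP belongs, on either strand. Both factors are known for acting on genes of the respiratory chain. The Sdha promoter held 3 NRF1 matches. That of Cox6a1 held 3 NRF1 matches, of which 2 are 1 palindromic stretch read on both strands, and 1 ETS match. The Cox6b1 promoter held 1 ETS match, and none of the searched motifs was in the Cox6b2 window. Uqcr10, Ndufc1 and Ndufs3, whose folds in Leydig-like cells were larger than that of Sdha, had no NRF1 match. The promoters of Cox6a1 and Sdha thus do not stand for those of the genes high in Leydig-like cells.

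Over the whole list, windows from 250 bases before to 50 bases after a start were found for 80 of the 99 nuclear genes. Among the 68 subunit genes with a window, 20 (29.4%) held the NRF1 motif, against 9.63% of 17491 protein-coding genes. The ETS motif was in 17 (25%), against 12.9% of all. The YY1 motif AAGATGGCG was in 7 (10.3%), against 2.14% of all, and the TATA box TATAAA in 8 (11.8%), against 14.8%. At least 1 of the NRF1, ETS and YY1 motifs was in 36 of the 68 (52.9%), against 21.8% of all genes, and this describes letters in the windows only. Each of these motifs holds a CpG (a C followed by a G). The median window of all protein-coding promoters held 13 CpG, and those of the printed genes held from 10 (Cox6b2) to 32 (Cox6a1). The printed genes do not stand for the list here, and the median CpG of the list's windows was not computed. How far base composition goes into the shares was not tested. Among the genes without a window were Atp5a1, Atp5mpl, Cox4i1, Cox4i2, Cox6a2, Cox6c, Cox8c, Ndufa2, Ndufa4l2, Ndufaf6, Ndufb1-ps, Ndufb9, Ndufs1, Sdhc, Uqcrb, Uqcrc2, Uqcrq and the second locus named Atp5o.

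The library gave 5421 barcodes and 72595083 UMIs, of which 3822 cells with 54807714 UMIs (median 12104 per cell) were kept. Clustering gave 16 clusters, of which 15 took a name from markers. The 7 named classes of at least 100 cells were Sertoli-like (920 cells, median 14148 UMIs), germ-like (248, median 36240), Leydig-like (312, median 16210), interstitial-like (1356, median 9289), peritubular myoid-like (523), coelomic epithelium-like (150) and perivascular-like (105). The 10 leading genes held Amh and Dhh in the larger Sertoli-like cluster, Dazl and Pou5f1 in germ-like cells and Cyp11a1 and Star in 1 of the 2 Leydig-like clusters. They held no listed marker in the other Leydig-like cluster and in 2 of the 3 interstitial-like clusters, which were named from the level of their markers. A second Sertoli-like cluster, numbered 11 and made up of 63 cells at a median depth of 3181 UMIs, had only Tesc of its markers among its 10 leading genes and is described apart. Levels are given as CPM, the UMIs of a gene per 1000000 UMIs of a class, and all intervals are exact 95% intervals that cover counting error only. No test between classes was possible with 1 library, and classes differ in depth.

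In all kept cells together, the nuclear genes took 2.85% of UMIs and the 13 mitochondrial genes 8.5%. The mitochondrial share differed more between classes than the nuclear share did. Sertoli-like cells had 11.5% mitochondrial UMIs, Leydig-like cells 10.5% and germ-like cells 9.19%, whereas interstitial-like (6.23%), peritubular myoid-like (6.45%), coelomic epithelium-like (7.04%) and perivascular-like cells (6.03%) were lower. The nuclear share was 3.8% in Leydig-like cells and 3.1% in germ-like cells, and lay between 2.51% (coelomic epithelium-like) and 2.72% (perivascular-like) in the other 5 of these classes. Mitochondrial UMIs per nuclear UMI of the list ranged from 2.21 in perivascular-like to 4.32 in Sertoli-like cells, so Sertoli-like cells were high for the mitochondrial genes alone. The counting interval was widest for the perivascular-like mitochondrial share, at 5.99% to 6.07%. Ribosomal protein genes, which share the total, took 19% of UMIs in Sertoli-like, 19.2% in Leydig-like, 26% in interstitial-like and 29.6% in germ-like cells, and the 3 comparisons between classes below are also given without them.

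**Figure D1:**
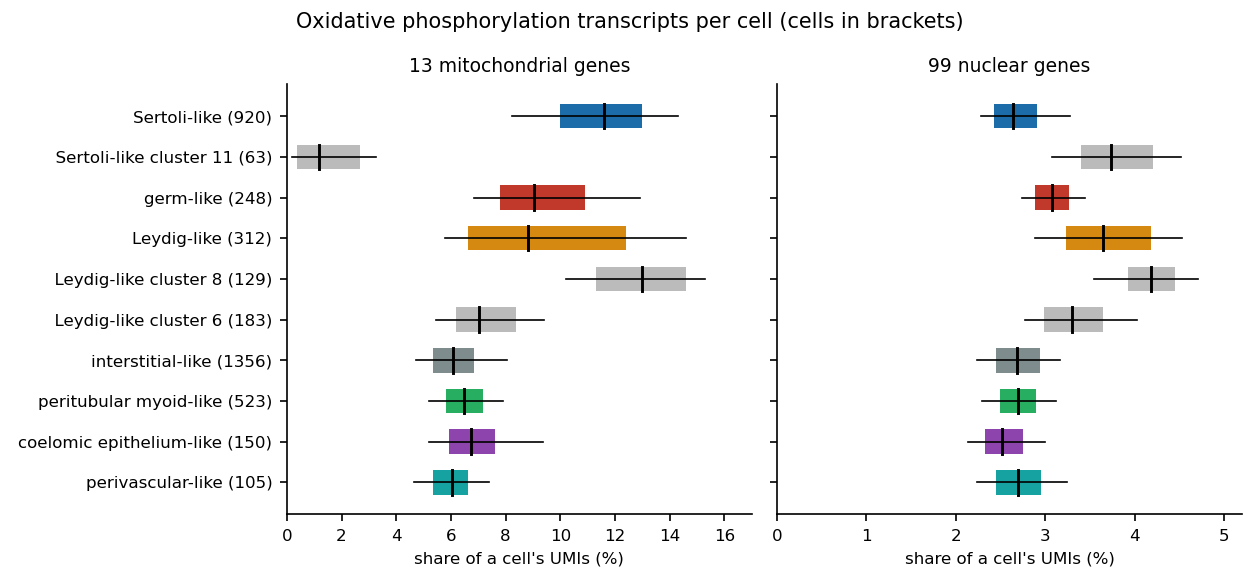
Share of each cell's UMIs (%) from the 13 mitochondrial genes (left) and the 99 nuclear genes (right), by class and for 3 single clusters in grey; boxes run from the 25 to the 75 percentile over cells, black ticks mark the median and lines run from the 10 to the 90 percentile. Median mitochondrial shares were 11.6% in Sertoli-like and 6.06% in interstitial-like cells, and Leydig-like cluster 8 (13%) and cluster 6 (7.03%) sat apart.

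The small classes rest on few cells. The 21 rete testis-like cells had 10.9% mitochondrial UMIs, close to Sertoli-like cells, and a nuclear share of 3.01%. Endothelial-like cells (21) had 8.23%, immune-like cells (35) 5.88% and erythroid-like cells (42) 4.26%, the lowest of the named classes. In erythroid-like cells hemoglobin genes took 31.7% of UMIs, which lowers every other share there.

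Within the nuclear list, levels spanned a wide range that 3′ counting cannot turn into amounts of protein: UMIs count 3′ ends, are not divided by length and depend on how well each end is captured and mapped. By complex, the 37 genes of complex I together reached 8740 CPM in all kept cells, the 18 of complex V 8681 CPM, the 19 of complex IV 7017 CPM, the 8 of complex III 2544 CPM and the 4 of complex II 510 CPM. The 12 assembly factors summed to 522 CPM. Of the 99 genes, 80 had a UMI in at least 50% of the kept cells, and 95 had a mean of at least 5 CPM over the 7 classes; the other 4 were Cox6a2, Cox8b, Cox8c and the second Atp5o locus. Over the 7 classes, complex I held between 28.7% (coelomic epithelium-like) and 31.6% (Leydig-like) of the list's nuclear UMIs, and complex V between 29.8% (Sertoli-like) and 31.7% (peritubular myoid-like).

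In complex IV, Cox4i1 (1078 CPM over all kept cells), the regulatory subunit, and Cox7c (1008 CPM) were highest and Cox8b lowest (0.11 CPM). In complex V these were Atp5b (787 CPM), the catalytic beta subunit, and Atp5g2 (782 CPM), a gene of the c subunit that forms the turning ring. In complex III, Uqcrh (728 CPM), the hinge protein, and Uqcrb (455 CPM) led, and Uqcrc1, a core protein, was lowest (136 CPM). In complex I, the accessory subunit genes Ndufa7 (471 CPM) and Ndufb9 (439 CPM) led, and Ndufs1, which carries iron-sulfur clusters of the electron path, was the lowest (60.1 CPM). In complex II, Sdha (146 CPM), the flavoprotein that oxidises succinate, and Sdhb (141 CPM), the iron-sulfur protein, were above the membrane anchor gene Sdhc (90.5 CPM).

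Of the 95 nuclear genes with at least 5 CPM, 54 (56.8%) had their highest level in Leydig-like cells among the 7 classes, whereas 13.6% of all 10460 genes at that minimum did. Germ-like cells held the highest level of 23 genes (24.2%, against 26.4% of all genes) and the lowest of 31 (32.6%, against 37.8%). Coelomic epithelium-like cells held the lowest level of 26 (27.4%, against 9.23% of all genes), and interstitial-like cells the highest of none (9.07% of all genes). Between its highest and its lowest class, the median gene of the 95 differed by 2-fold on the CPM + 1 scale, the least by 1.24-fold (Atp5e, the epsilon subunit of complex V), and 13 genes by more than 3-fold. This spread was not computed for all genes, so these values are a description only.

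**Figure D2:**
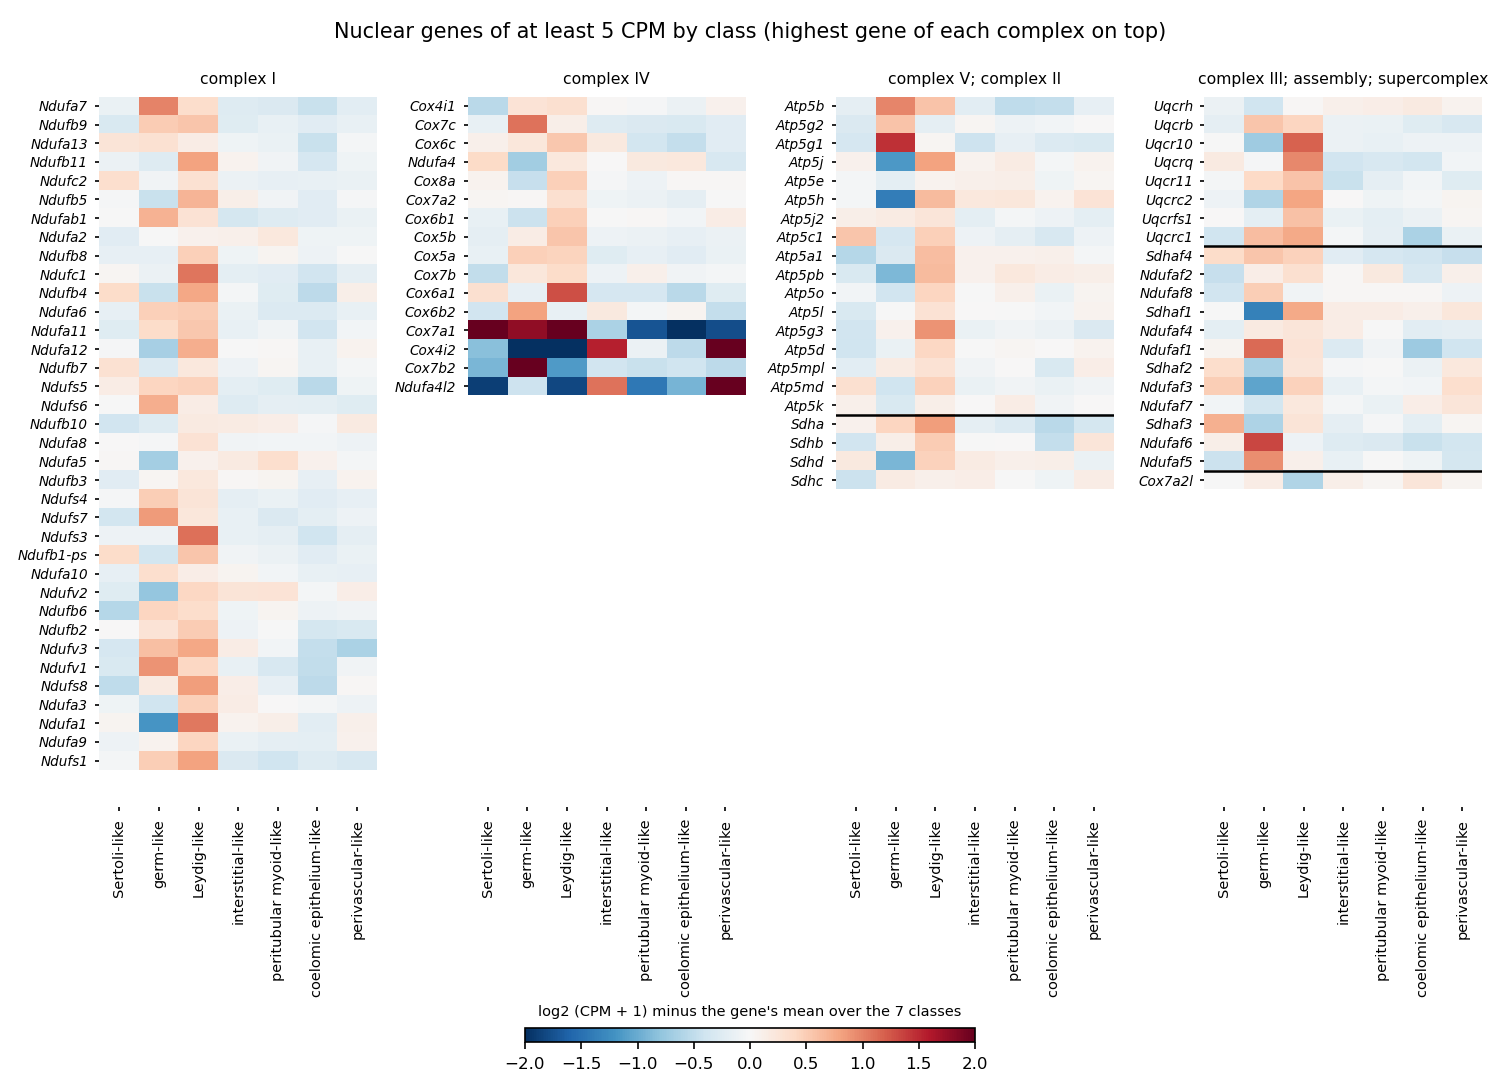
Log2 (CPM + 1) of nuclear genes with at least 5 CPM in the 7 classes, less the gene's own mean over the classes, by complex and with the highest gene of each complex on top; colours stop at 2 in either direction, so the largest differences (Cox7a1, Cox4i2, Cox7b2 and Ndufa4l2) run past the scale. The Leydig-like column is red for most genes, and the germ-like column holds both red (Atp5g1) and blue (Atp5h) within 1 complex.

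Leydig-like cells were set against interstitial-like cells, the stromal class around them. Summed over the 99 nuclear genes, the level was 1.41-fold higher (95% interval 1.4 to 1.41) in Leydig-like cells, and it was higher in each complex: 1.47-fold for complex I, 1.42-fold for complex II, 1.6-fold for complex III, 1.38-fold for complex IV and 1.37-fold for complex V. The 12 assembly factors together were 1.3-fold higher. A gene was called when its CPM + 1 differed by more than 1.5-fold. On that rule 35 of the 95 nuclear genes (36.8%) were higher and 4 (4.21%) lower, against 14.6% higher and 27.8% lower among all 10460 genes. The median nuclear gene was higher by 0.48 on the log2 scale, against -0.20 for all genes. Above 1-fold lay 83 of the 95 (87.4%), against 37.6% of all genes.

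Cox6a1, a subunit of complex IV whose product binds at the dimer interface, had 731 CPM in Leydig-like and 237 CPM in interstitial-like cells, and 206 to 375 CPM in the other 5 classes. Its fold of 3.08 (2.94 to 3.23) was the largest among the abundant nuclear genes. The complex III genes Uqcrq (560 against 221 CPM, 2.54-fold) and Uqcr10 (693 against 281 CPM, 2.46-fold), both small subunits of the bc1 complex, followed. In complex I, Ndufc1 reached 603 against 249 CPM (2.42-fold) and Ndufs3, a core subunit of the peripheral arm, 367 against 153 CPM (2.4-fold). Sdha, at 243 against 121 CPM, was 2.01-fold higher, while the other complex II genes did not pass the fold. The class levels of Cox6a1 and Uqcr10 in Leydig-like cells lay above those of the other 6 classes by more than their counting intervals.

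The genes lower in Leydig-like cells were few. Cox7a2l, the supercomplex factor, had 325 CPM in Leydig-like cells and 487 to 580 CPM in the other 6 classes, which was 0.607-fold (0.577 to 0.639) of the interstitial-like level. Its partner Cox7a2, a structural subunit of complex IV from the same family, had 574 against 435 CPM, so Cox7a2l made up 35.2% of the Cox7a family's UMIs in Leydig-like cells and 54.9% in interstitial-like cells. Erythroid-like cells, a smaller class outside these, had a like share of 37% (32.7 to 41.5), so a low share was not particular to Leydig-like cells. The other 3 called lower were Cox4i2 and Ndufa4l2, with 3 UMIs each in all Leydig-like cells, and Cox7b2, with 4 UMIs (ratio 0.374, interval 0.0945 to 1.08). These 3 passed the minimum of 5 CPM through perivascular-like or germ-like cells, and the interval of Cox7b2 includes 1, so the count of lower genes says little beyond Cox7a2l. Cox7a1, the form of the subunit known from heart and skeletal muscle, was higher at 23.8 against 2.97 CPM (8-fold, 5.59 to 11.7, and 6.91 to 13.2 over the alternatives).

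The 13 mitochondrial genes were also higher in Leydig-like cells, 1.69-fold in sum. Of the 13, 11 (84.6%) passed 1.5-fold, against 14.6% of all genes, while mt-Atp8 (1.31-fold) and mt-Atp6 (1.46-fold) did not. The genes of complex I differed the most, with mt-Nd2 at 2.2-fold and mt-Nd1 at 2.06-fold, and the complex I sum was 2.02-fold, against 1.62-fold for complex IV and 1.46-fold for complex V. Nuclear and mitochondrial genes were thus both higher in this class. With ribosomal protein genes left out of the total (the non-ribosomal scaling), the nuclear fold was 1.29 with 20 genes higher and 4 lower (21.1% and 4.21% of members, against 12.4% and 34.2% of all genes); with mitochondrial genes left out it was 1.47 with 45 higher (47.4%, against 16.2% of all genes). The non-ribosomal scaling moved the median of all genes in this comparison from -0.20 to -0.32 on the log2 scale.

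Leydig-like cells fell into 2 clusters, compared here after the clusters had been seen. Cluster 8 (129 cells, median 21458 UMIs) was led by steroidogenic genes such as Cyp11a1, Star and Hsd3b1, and cluster 6 (183 cells, median 13673 UMIs) by Nppc and Vsnl1. Mitochondrial genes took 13.1% of UMIs in cluster 8 and 7.28% in cluster 6 (1.79-fold), and nuclear genes 4.14% and 3.36% (1.23-fold). Cluster 8 reached close to the limit of 16.1% mitochondrial UMIs for kept cells, with a 90 percentile of 15.3%. Without that limit the Leydig-like cluster with Cyp11a1 and Star among its leading genes held 174 cells, and that led by Nppc and Vsnl1 also 174. Ribosomal protein genes, which share the total, took 16.1% in cluster 8 and 23.2% in cluster 6, and the folds between these clusters were not computed without them. All 13 mitochondrial genes were past 1.5-fold higher in cluster 8, from 1.52-fold (mt-Atp8) to 2.14-fold (mt-Nd2). Of the nuclear genes, 14 (14.7%) were higher and 2 (2.11%) lower, against 11.2% and 29% of all genes, so the higher count is near the background. Their median was 0.29 on the log2 scale, against -0.24 for all genes. Above 1-fold lay 78 of the 95 (82.1%), against 34.5% of all genes. The 2 genes called lower, Cox4i2 and Ndufa4l2, had 0 UMIs in cluster 8 and 3 in cluster 6 (interval of each ratio 0 to 1.89). No nuclear gene called lower here was thus lower by more than counting error.

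Cluster 8 is part of the class compared with interstitial-like cells above, so the folds of both comparisons share its cells. Uqcrq was at 730 CPM in cluster 8 and 343 CPM in cluster 6 (2.12-fold), Cox6a1 at 913 and 498 CPM (1.83-fold), and Ndufc1 at 741 and 425 CPM (1.74-fold). Ndufa1, an accessory subunit on the X chromosome, was at 260 and 132 CPM (1.97-fold), and Cox7a1 at 34.6 and 9.89 CPM (3.49-fold, 2.25 to 5.63). Across the 312 Leydig-like cells, the mitochondrial share and the nuclear genes' share of non-mitochondrial UMIs had a Spearman's rho of 0.77, and 0.75 after each cell was thinned to 5000 UMIs; within clusters 6 and 8 rho was 0.52 and 0.33, and 0.54 and 0.19 when thinned. In the other 6 classes rho lay between -0.26 and 0.27. These cells shared 1 library, and the mitochondrial share also went with UMIs per cell in the Leydig-like class (rho 0.56).

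**Figure D3:**
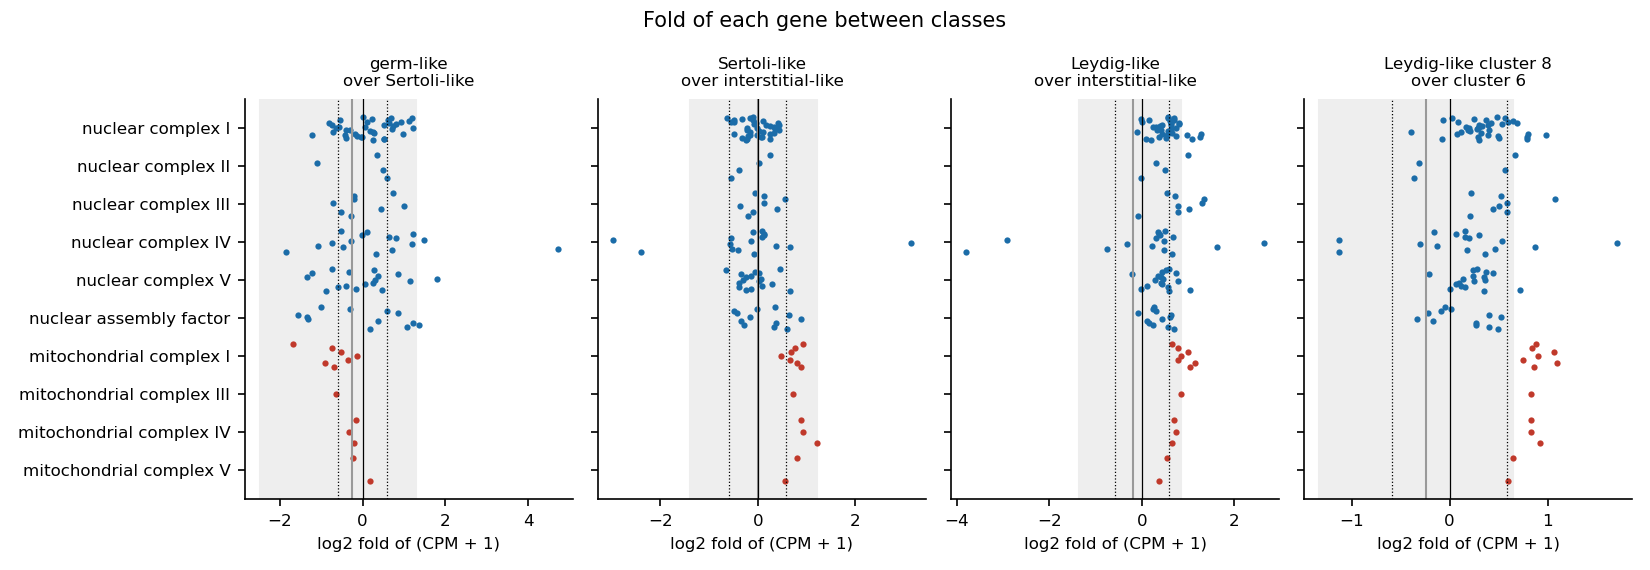
Log2 fold of (CPM + 1) for each gene with at least 5 CPM between classes, by complex (nuclear genes in blue, mitochondrial genes in red); dotted lines mark a fold of 1.5, the grey line the median of all 10460 genes and the grey band their 10 to 90 percentile. Most Leydig-like points lie right of 0 in all rows, Sertoli-like nuclear points lie close to 0 while the mitochondrial points do not, and germ-like points spread to both sides.

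Sertoli-like cells differed from interstitial-like cells in their mitochondrial genes. The mitochondrial sum was 1.85-fold higher (1.84 to 1.85), and 11 of 13 genes (84.6%) passed 1.5-fold, against 21.4% of all genes. The level of mt-Co1, the catalytic subunit of complex IV, was 17587 against 7591 CPM (2.32-fold), that of mt-Co2 16885 against 8947 CPM (1.89-fold) and that of mt-Co3 26374 against 14247 CPM (1.85-fold). Complex IV mRNAs were thus 1.98-fold higher in sum, complex I mRNAs 1.71-fold and mt-Cytb, the cytochrome b of complex III, 1.66-fold. The 2 genes under the fold were mt-Nd4l (1.39-fold) and mt-Atp8 (1.49-fold). Both were of low count, but so was mt-Nd6, which passed at 1.92-fold.

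The nuclear genes did not share this difference. Their sum was 0.986-fold (0.981 to 0.991) of the interstitial-like level, and it turned to 1.01 as a mean over single cells and to 1.04 with mitochondrial genes left out of the total, so no direction is given. Of 95 genes, 6 (6.32%) were higher and 4 (4.21%) lower, against 21.4% and 21.7% of all genes. The 6 higher genes were Cox7a1 (34 against 2.97 CPM, 11.4-fold), the succinate dehydrogenase assembly factors Sdhaf3 (1.88-fold) and Sdhaf4 (1.52-fold), the complex I assembly factor Ndufaf3 (1.59-fold), Cox6a1 (1.58-fold) and Atp5c1, the gamma subunit that turns in ATP synthase (784 against 496 CPM, 1.58-fold). The lower genes were Cox4i2 and Ndufa4l2, Atp5a1, the alpha subunit (350 against 552 CPM, 0.634-fold), and Ndufs8 (83.1 against 130 CPM, 0.639-fold). Of these, Cox4i2 and Ndufa4l2 passed the minimum of 5 CPM only through perivascular-like cells, and had 40 and 6 UMIs in Sertoli-like cells. Under the non-ribosomal scaling 2 were higher and 13 lower (2.11% and 13.7%, against 18.7% and 26.1% of all genes), with the median of all genes at -0.11 instead of 0.01.

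Cluster 11 went against the rest of the Sertoli-like class. Its 63 cells had 2.17% mitochondrial UMIs, against 11.7% in the 857 cells of cluster 1, and 3.67% nuclear UMIs of the list, against 2.65%. Without cluster 11 the mitochondrial fold over interstitial-like cells was 1.88 and the nuclear fold 0.979. Depth differed with this cluster (median 3181 against 14336 UMIs), and its part in these values was not tested.

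Germ-like cells were set against Sertoli-like cells, with which they share the testis cords. The nuclear sum was 1.16-fold (1.16 to 1.17) and the mitochondrial sum 0.8-fold (0.797 to 0.802) of the Sertoli-like level. Of the 95 nuclear genes 29 (30.5%) were higher and 19 (20%) lower, against 24.1% and 39.5% of all genes, so single genes lay on both sides. Among those called, Cox7b2 (higher) passed the minimum of 5 CPM only through germ-like cells. Ndufa4l2 (higher, 27 against 6 UMIs) and Cox4i2 (lower, 1 against 40 UMIs) passed it only through perivascular-like cells. In sum the complexes differed little, from 1.04-fold for complex III to 1.2-fold for complex IV. Under the non-ribosomal scaling the split was 35 higher and 12 lower (36.8% and 12.6%, against 29.6% and 34.6%), and the median of all genes moved from -0.25 to -0.07 on the log2 scale.

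In complex V the folds ran to both sides. Atp5g1, one of the genes for the c subunit, had 1620 CPM in germ-like and 465 CPM in Sertoli-like cells (3.48-fold, 3.38 to 3.59), with 443 to 608 CPM in the other 5 classes. Atp5b had 1424 against 640 CPM (2.23-fold) and Atp5g2 1152 against 630 CPM (1.83-fold). The stalk subunit genes Atp5h (226 against 572 CPM, 0.394-fold), Atp5j (289 against 680 CPM, 0.426-fold) and Atp5c1 (423 against 784 CPM, 0.539-fold) were lower. Atp5h and Atp5j were at their lowest of all 7 classes in germ-like cells, where the next lowest levels were 572 CPM and 621 CPM.

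In complex IV, Cox7c had 1993 CPM in germ-like cells and 753 to 1016 CPM in the other 6 classes, and was 2.35-fold (2.3 to 2.41) higher than in Sertoli-like cells. Ndufa4, once counted with complex I and now known as a complex IV subunit, was lower at 471 against 1000 CPM (0.471-fold). In complex I, the core subunit genes Ndufs7 (331 against 141 CPM, 2.35-fold) and Ndufv1 (254 against 110 CPM, 2.31-fold) and the accessory gene Ndufa7 (875 against 399 CPM, 2.2-fold) were higher, whereas Ndufa1 was lower (42.6 against 101 CPM, 0.42-fold). In complex II the anchor gene Sdhd was lower (66.8 against 145 CPM, 0.462-fold) and the anchor gene Sdhc higher (104 against 68.7 CPM, 1.52-fold).

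Of the 12 assembly factors 5 were higher and 4 lower, beside the 24.1% and 39.5% of all genes. Ndufaf5 (24.6 against 8.95 CPM, 2.74-fold, and 2.67 to 4.31 over the alternatives), Ndufaf6 (46 against 19.3 CPM, 2.38-fold), Ndufaf1 (2.14-fold), Ndufaf8 (1.85-fold) and Ndufaf2 (1.52-fold), which act on complex I, were higher in germ-like cells, while Ndufaf3 was lower (13.8 against 42.5 CPM, 0.325-fold). The complex II assembly factors Sdhaf1 (16.1 against 42.6 CPM, 0.378-fold), Sdhaf3 (0.388-fold) and Sdhaf2 (0.488-fold) were lower. Sdhaf4 (1.14-fold), Ndufaf4 (1.31-fold) and Ndufaf7 (0.798-fold) did not pass.

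Alternative subunit genes separated germ-like and perivascular-like cells from the rest. Cox7b2, on chromosome 5, known from testis, had 51.3 CPM (46.7 to 56.2) in germ-like cells and 0.694 to 1.86 CPM in the other 6 classes. It had a UMI in 60.9% of germ-like cells and 1.41% of Sertoli-like cells; with cells thinned to 5000 UMIs these shares were 21.9% of 247 and 0.583% of 857 cells. Unthinned, the median depths were 36240 and 14148 UMIs. The germ-like over Sertoli-like ratio was 52 (30.1 to 98.4), from 453 and 13 UMIs. The common gene Cox7b stayed the main one, at 399 CPM, and Cox7b2 made up 11.4% (10.4 to 12.4) of both.

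Cox8c, also known from testis, had 9.73 CPM in germ-like cells from 86 UMIs, 2 UMIs in Sertoli-like cells and 0 in Leydig-like, interstitial-like, peritubular myoid-like and perivascular-like cells. The ratio to Sertoli-like cells was 64.2 with an interval from 17.2 to 538, and from 48.4 to 111 over the alternatives. It made up 1.65% of the Cox8 family in germ-like cells, against Cox8a at 98.3%. Cox6b2, whose promoter is printed above, had 77 CPM (71.3 to 83) in germ-like cells but 30.9 to 49.6 CPM in the other 6 classes, so it was not restricted to germ-like cells, where it made up 18.3% of Cox6b UMIs. Outside the 7 classes, the unnamed cluster had 69 Cox6b2 UMIs among 842683, against 680 among 8835631 in germ-like cells. Germ-like cells thus did not stand above it. Cox6b2 made up 14.5% of Cox6b UMIs in the unnamed cluster and 14.4% in erythroid-like cells. Cyct, the testis cytochrome c gene, is no member of the list but of the same pathway; it had 96.3 CPM in germ-like cells and 0.865 to 6.35 CPM in the other 6 classes, while Cycs, the somatic form, was highest in Sertoli-like cells (496 CPM, against 330 CPM in germ-like and 134 CPM in interstitial-like cells).

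Cox4i2 and Ndufa4l2 were among the 10 leading genes of the perivascular-like cluster, so their levels there are a description. Cox4i2, known from lung and induced by low oxygen, had 205 CPM (181 to 231) in perivascular-like cells, 20.1 CPM in interstitial-like cells and 0.113 to 5.62 CPM in the other 5 classes. Ndufa4l2, likewise induced by low oxygen, had 228 CPM (202 to 256), against 10.4 CPM in interstitial-like cells and 0.455 to 3.06 CPM in the other 5. They made up 14.9% of Cox4i and 27% of Ndufa4 and Ndufa4l2 UMIs there. With the clusters drawn without any gene of the list and without regressing out the mitochondrial share, the perivascular-like class shrank to 58 cells, and the levels there were 302 CPM for Cox4i2 and 416 CPM for Ndufa4l2. The gene of Cox4i2 lies at chr2:152754173-152765037 and that of Ndufa4l2 at chr10:127514967-127517154 (GRCm38).

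Cox7a1 (chr7:30184144-30186078) had another pattern, with 34 CPM in Sertoli-like, 23.8 CPM in Leydig-like and 20 CPM in germ-like cells but 0.366 to 2.97 CPM in the other 4 classes. Even in Sertoli-like cells it made up 3.42% of the Cox7a family. The c subunit genes, which code for 1 mature protein, also differed in their mix: Atp5g1 was 50.8% of their UMIs in germ-like cells and 27.6% to 33.2% in the other 6 classes, and Atp5g3 was 36.5% in Leydig-like cells (742 CPM) and 13.1% to 23.3% in the others. Erythroid-like cells, a smaller class outside these, had 40.8% Atp5g1 (37.4 to 44.3) and 25.6% Atp5g3. Cox6a2 and Cox8b, known from muscle, had 20 and 6 UMIs in all kept cells. Cox6a1 held 99.7% of the Cox6a UMIs in Sertoli-like cells, the lowest share of the 7 classes. Cox6c, a gene with no second form in the list, ran from 577 CPM in coelomic epithelium-like to 1163 CPM in Leydig-like cells.

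**Figure D4:**
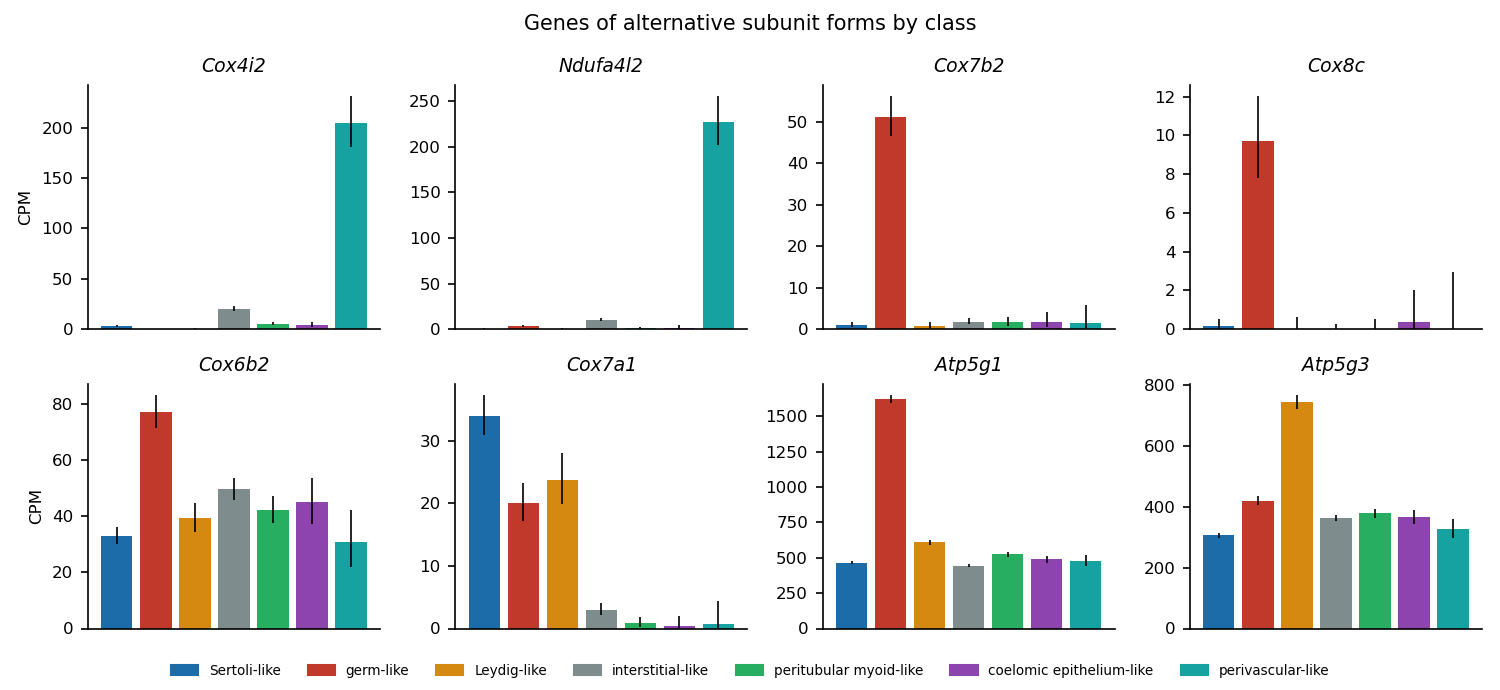
CPM of 8 genes for alternative subunit forms in the 7 classes of at least 100 cells; bars start at 0 and lines give exact 95% counting intervals. Cox4i2 (205 CPM) and Ndufa4l2 (228 CPM) stand out in perivascular-like, Cox7b2 (51.3 CPM) and Cox8c (9.73 CPM) in germ-like, and Atp5g3 (742 CPM) in Leydig-like cells.

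The 13 mitochondrial mRNAs were far from equal. In all kept cells mt-Co3 made up 23.2% of mitochondrial UMIs, mt-Atp6 18.8%, mt-Co2 14.5%, mt-Co1 13.7% and mt-Cytb 9.1%. The complex I genes together made up 20.6%, led by mt-Nd1 (6.37%), mt-Nd4 (5.9%) and mt-Nd2 (5.13%), then mt-Nd3 (2.12%), mt-Nd5 (0.78%) and mt-Nd4l (0.2%). The lowest were mt-Atp8 (0.0897%) and mt-Nd6 (0.0687%), which is the only one of the 13 on the minus strand. These shares mix abundance with how well each end is captured.

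Overlapping reading frames limit 2 of these genes. The end of mt-Atp8 and the start of mt-Atp6 share 43 bases at chrM:7927-7969 on 1 mRNA, and mt-Nd4l and mt-Nd4 share 7 bases (atgctaa) at chrM:10167-10173. The shared stretch of the mt-Atp8 and mt-Atp6 frames is shown because 1 mRNA carries both frames while the counts went almost wholly to mt-Atp6; capitals mark the start codon of mt-Atp6 and the stop codon of mt-Atp8.
mt-Atp8 and mt-Atp6: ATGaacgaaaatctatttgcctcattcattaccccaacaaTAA
The counts were 4179 UMIs for mt-Atp8 and 876812 for mt-Atp6, a ratio of 210, and 9305 for mt-Nd4l and 274659 for mt-Nd4, a ratio of 29.5. A low value of mt-Atp8 or mt-Nd4l is therefore no measure of its frame.

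The mix differed between classes, most of all in germ-like cells. Complex I mRNAs were 15.8% of mitochondrial UMIs there, 19.8% in Sertoli-like, 21.3% in interstitial-like and 25.5% in Leydig-like cells. For mt-Nd2 the share ran from 3.37% in germ-like to 6.88% in Leydig-like cells, and for mt-Nd6 from 0.0313% in germ-like to 0.0814% in Sertoli-like cells. The mRNAs of complex IV went the other way, with mt-Co1 at 16.5% in germ-like, 15.3% in Sertoli-like, 11.3% in Leydig-like and 10.6% in perivascular-like cells. By contrast mt-Co2 kept 14.1% to 14.7% in all 7 classes.

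As levels, germ-like cells had 0.639-fold of the Sertoli-like complex I mRNAs and 0.865-fold of the complex IV mRNAs, and 5 of the 13 genes passed 1.5-fold lower (mt-Nd6, mt-Nd2, mt-Nd5, mt-Nd1 and mt-Cytb) and none higher. That is 38.5% lower, against 39.5% of all genes, so the count itself is at the background. The largest difference was that of mt-Nd6, at 28.8 against 93.6 CPM (0.307-fold, 0.267 to 0.352), from 254 and 1234 UMIs. This mRNA had the lowest share of the 13 in all kept cells, and how well its end is captured was not tested. The level of mt-Co3 was 0.904-fold and that of mt-Nd4l 0.909-fold, and both turned above 1 with ribosomal protein genes left out of the total (1.04 and 1.05), so no direction is given for them.

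**Figure D5:**
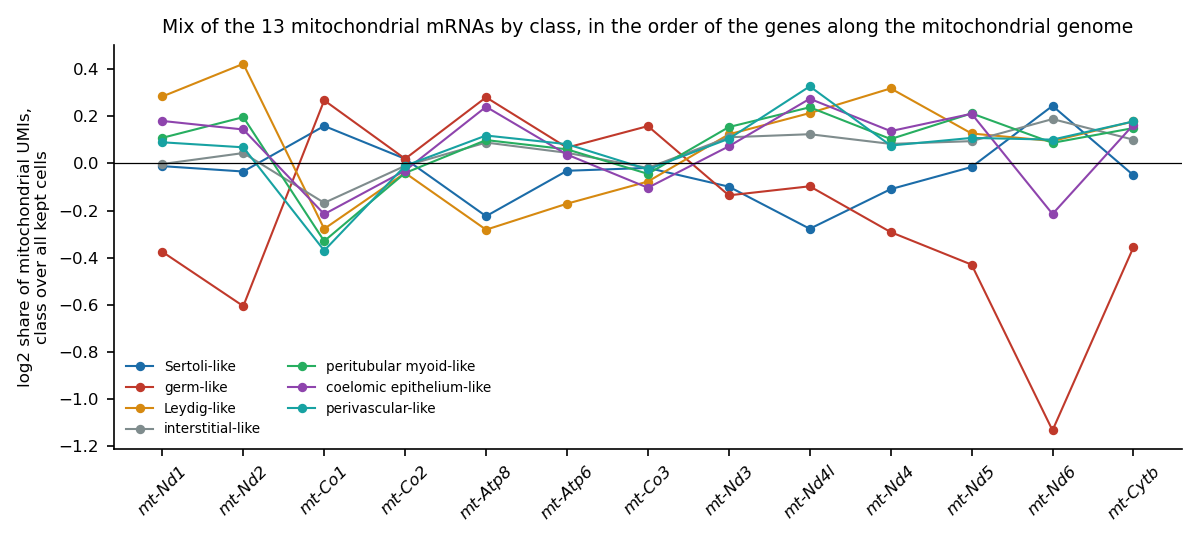
Log2 ratio of each mitochondrial mRNA's share of mitochondrial UMIs in a class to its share in all kept cells, with the 13 genes in their order along the mitochondrial genome and 1 line per class. The germ-like line lies below 0 at mt-Nd1, mt-Nd2, mt-Nd6 and mt-Cytb and above it at mt-Co1 (16.5%, against 13.7% in all kept cells), and the Leydig-like line peaks at mt-Nd2 (6.88%, against 5.13%).

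The limit on the mitochondrial share touched these values. Cells above 16.1% mitochondrial UMIs had been left out, and without that limit 145 more cells came in, of which 56 fell in unnamed clusters (35.9% of the cells there), 40 were Leydig-like (11.5% of that class), 36 Sertoli-like (3.85%), 6 germ-like (2.33%), 3 rete testis-like (8.33%), 3 interstitial-like (0.231%) and 1 endothelial-like (4.55%). One unnamed cluster of 68 cells was led by mt-Atp6, mt-Co3 and mt-Co2. The mitochondrial fold of Leydig-like over interstitial-like cells then was 1.88 instead of 1.69, that of Sertoli-like cells 1.89 instead of 1.85, and that of germ-like over Sertoli-like cells 0.795 instead of 0.8. All 3 values are thus bound to this limit. The folds between the Leydig-like clusters and the rho values were not computed without it.

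Other genes of the pathway were described from a list of 52 genes outside the name rule, of which 50 had at least 5 CPM. In Leydig-like over interstitial-like cells 12 of the 50 were higher and 3 lower, against 14.6% and 27.8% of all genes. In Sertoli-like over interstitial-like cells 10 were higher and 1 lower, against 21.4% and 21.7%, so the higher count is near the background. In germ-like over Sertoli-like cells 15 were higher and 12 lower, against 24.1% and 39.5%. Cyct, among the higher, passed the minimum of 5 CPM only through germ-like cells. Ppargc1a, lower in each comparison, passed it only through coelomic epithelium-like cells. Among carriers, Cyc1, the cytochrome c1 of complex III that the prefixes leave out, was 2.16-fold higher in Leydig-like cells (333 against 154 CPM), and Cycs was 3.71-fold higher in Sertoli-like than in interstitial-like cells.

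Of the 30 complex assembly factors with at least 5 CPM, 7 were higher and none lower in Leydig-like cells (14.6% and 27.8% of all genes), among them Cox17, a copper chaperone of complex IV (93.8 against 29 CPM, 3.24-fold), Cox18 (2.92-fold) and Tmem70, which assembles ATP synthase (2.18-fold). In germ-like cells 8 were higher and 8 lower than in Sertoli-like cells (24.1% and 39.5% of all genes). Cox20, a chaperone of COX2, had 10.9 against 96.3 CPM (0.113-fold) and Coa7 118 against 47.7 CPM (2.48-fold). Of 16 genes of mitochondrial DNA and biogenesis, 2 were higher and 3 lower in Leydig-like over interstitial-like cells, beside 14.6% and 27.8% of all genes. The higher count is thus near the background. Lonp1, the matrix protease, was 4.43-fold higher in Leydig-like cells (153 against 34.5 CPM). The regulators Ppargc1a (1.39 against 6.53 CPM), Pprc1 (8.32 against 15.4 CPM) and Nrf1 (16.7 against 29.9 CPM) were lower in Leydig-like cells. Esrra was higher (10.1 against 6.01 CPM, 1.67-fold), while Gabpa, Gabpb1 and Tfam did not pass the fold. Ppargc1a passed the minimum of 5 CPM only through coelomic epithelium-like cells (20.8 CPM). Esrra stood near that minimum, with a mean of 5.88 CPM over the classes. In germ-like over Sertoli-like cells 6 of the 16 were higher and 2 lower, beside 24.1% and 39.5% of all genes. Lrpprc, which keeps mitochondrial mRNAs stable (113 against 37.5 CPM, 3.01-fold), and Pprc1 (66.2 against 16.7 CPM, 3.97-fold) were among the higher. The 2 lower were Ppargc1a (0.792 against 3.79 CPM) and Esrra (2.6 against 6.14 CPM).

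Some members share their 3′ sequence with other genes. The last 300 bases of 29 nuclear and 7 mitochondrial members matched a transcript of another gene over at least 90 bases at 95% identity or more. Ndufaf7 matched the most, with 62 other genes, of which 0 were pseudogenes. For the other members most matches were pseudogenes: Atp5l matched 11, Cox7c, Atp5h, Atp5md and Uqcrb 3 each, and Atp5g1 and Atp5g2 2 each. How the counting divided such reads is not known from the files, so the levels of these genes are uncertain to that extent; Cox7b2, Cox6b2, Cox8c, Cox7a1, Cox4i2 and Ndufa4l2 had no such match, and Cox6a1 matched a transcript of 1 other gene.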

How the data were processed

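Single-cell RNA was measured in 1 library of fetal testis with the 10x 3′ method, version 3 chemistry. The authors deposited whole-number UMI counts per gene and barcode, not normalized, aligned to mm10 (GRCm38); the submitters' processing notes name Cell Ranger 3.0.2 and 3.1.0, and the matrix header gives 3.1.0. Barcodes under 200 genes, simulated-neighbour doublets (0.8% per 1000 barcodes) and cells beyond 3 median absolute deviations in UMIs, genes, mitochondrial or ribosomal share were left out. Free RNA was not corrected for. Clusters were made with Seurat 5.3.0 and sctransform 0.4.2 in R 4.3.3 (3000 variable genes, the mitochondrial share regressed out, 30 components, resolution 0.8). A cluster took a name where its markers averaged a log2 ratio of at least 1 (5 CPM added) and at least 3 were seen in 25% of cells or more. A cluster with a median depth under 1/3 of that of all kept cells also needed a marker among its 10 leading genes. Cluster 11 met this through Tesc alone. Counts were summed per class and divided by the class total (CPM). Intervals were exact 95% Poisson, Clopper-Pearson and binomial-split intervals, computed with Python 3.11.15, numpy 2.4.6, pandas 2.3.3 and scipy 1.17.1; scikit-learn 1.9.0 served the doublet search. A fold over 1.5 of CPM + 1 was called among genes with a mean of at least 5 CPM; the procedure was tested on simulated data.

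Named genes were all mitochondrial members, the 2 highest and the lowest nuclear gene of each complex, the alternative subunit forms, up to 5 nuclear genes per direction with the largest folds in each comparison, and the 5 varying most between classes. Further members and the single pathway genes were named after their values were seen. The members and lists were chosen with earlier results of these data known. Promoters came from RefSeq on GRCm38.p6. 1 member enters the sums and counts but is not reported here by itself.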

Additional observations from a re-analysis of the deposited data

Results flagged for a closer look

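These values come from barcodes and cells outside the main comparisons, which is why they are listed. In the 372 barcodes with under 200 genes the mitochondrial genes made up 49.2% of the pooled UMIs, while the 99 nuclear genes made up 0.136% and hemoglobin genes 46.8%. Single barcodes there ran from 0.0219% to 99.5% mitochondrial UMIs, with a median of 95.1%. In the 234 cells above the limit of 16.1% mitochondrial UMIs, the mitochondrial genes made up 25.9% of pooled UMIs and the nuclear genes 2.98%, against 8.5% and 2.85% in the kept cells. As a median per cell the nuclear share went the other way, with 2.72% in the kept cells and 2.01% in the cells above the limit. These cells were set apart by their mitochondrial share, so its level there is a description, and some of them entered the alternatives without the mitochondrial limit or the outlier filter. With 1 library, no search for a sample far from the others was possible.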

How the results depend on the processing

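No direction of a class comparison turned except that of the nuclear level in Sertoli-like over interstitial-like cells. No paired analysis was possible because there was 1 library. Of 71 single-gene folds, 69 stayed on 1 side of 1 under every alternative, the exceptions being mt-Co3 and mt-Nd4l in germ-like over Sertoli-like cells, and 11 moved by over 1.5 times: Ndufa4l2 in 4 comparisons, Cox4i2 in 3, and Ndufaf5, Cox8c, Cox7a1 and Cox7b2 in 1 each. The causes of the differences below were not tested, beyond what each alternative changes. Depth limits Cox8c, Cox7b2, Cox4i2 and Ndufa4l2 where they have few UMIs.

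The nuclear OXPHOS level, germ-like over Sertoli-like (1.16) was 1.15 with outliers cut at 5 deviations, 1.15 with no outlier filter, 1.13 as a mean of single-cell shares, 1.17 thinned, 1.13 per nuclear UMI and 1.34 per non-ribosomal UMI. The mitochondrial OXPHOS level, germ-like over Sertoli-like (0.8) was 0.776 at 5 deviations, 0.771 with no outlier filter, 0.795 with no mitochondrial limit, 0.811 with doublets kept, 0.805 with more doublets removed, 0.795 with the members left out of clustering, 0.788 with each cell classed alone, 0.855 as a mean of shares, 0.805 thinned, 0.779 per nuclear UMI and 0.919 per non-ribosomal UMI. Of the nuclear genes, 12 (12.6%) instead of 19 (20%) were lower per non-ribosomal UMI, against 34.6% instead of 39.5% of all genes.

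The nuclear OXPHOS level, Sertoli-like over interstitial-like (0.986) was 0.979 with no mitochondrial limit, 0.981 with the members left out, 0.994 with each cell classed alone, 1.01 as a mean of shares, 0.981 thinned, 1.04 per nuclear UMI and 0.901 per non-ribosomal UMI. The mitochondrial OXPHOS level, Sertoli-like over interstitial-like (1.85) was 1.88 at 5 deviations, 1.77 with no outlier filter, 1.89 with no mitochondrial limit, 1.8 with doublets kept, 1.85 with more removed, 1.88 with the members left out, 1.84 at resolution 1.2, 1.88 with each cell classed alone, 1.75 as a mean of shares, 1.87 thinned, 1.96 per nuclear UMI and 1.69 per non-ribosomal UMI. Thinned, 3 nuclear genes were higher, and the share of all genes was not computed for that setting. Per non-ribosomal UMI 2 were higher and 13 lower (2.11% and 13.7%, against 18.7% and 26.1% of all genes). Per nuclear UMI 2 were lower (2.11%, against 19.6% of all genes).

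The nuclear OXPHOS level, Leydig-like over interstitial-like (1.41) was 1.43 at 5 deviations, 1.44 with no outlier filter, 1.42 with no mitochondrial limit, 1.4 with doublets kept, 1.49 with each cell classed alone, 1.37 as a mean of shares, 1.36 thinned, 1.47 per nuclear UMI and 1.29 per non-ribosomal UMI. Per non-ribosomal UMI 20 nuclear genes (21.1%) were higher, against 12.4% of all genes. The mitochondrial OXPHOS level, Leydig-like over interstitial-like (1.69) was 1.95 at 5 deviations, 1.84 with no outlier filter, 1.88 with no mitochondrial limit, 1.7 with more doublets removed, 1.72 with the members left out, 1.68 at resolution 1.2, 1.82 with each cell classed alone, 1.52 as a mean of shares, 1.54 thinned, 1.77 per nuclear UMI and 1.55 per non-ribosomal UMI.

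An alternative chosen after seeing the data left out the low-depth Sertoli-like cluster. The nuclear OXPHOS level, germ-like over Sertoli-like, was then 1.17 and the mitochondrial OXPHOS level, germ-like over Sertoli-like, 0.787. The nuclear OXPHOS level, Sertoli-like over interstitial-like, was 0.979 and the mitochondrial OXPHOS level, Sertoli-like over interstitial-like, 1.88.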
